A study of Marchantia polymorpha and Arabidopsis thaliana with 40 samples.

Results

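Arabidopsis thaliana seedlings hold 893 accessible regions that opened strongly with heat in the wild type Col-0 and kept a flat signal in eTK, which carries knockouts of hsfa1a, hsfa1b and hsfa1d together, out of 110628 regions measured. They were chosen by the measured heat responses of both genotypes. Counts were scaled to each library's total as CPM, and the response L was the log2 ratio of mean heated to mean unheated CPM, each with 0.5 added, minus the median of that ratio over all regions. A member had L of at least 2 in Col-0, L within 0.3 of 0 in eTK and more than 3 counts over the 2 unheated eTK libraries. A stretch of chromosome 2 between 3 and 4 Mb was left out, and 159 of its 318 regions had L of at least 2 in Col-0. Those response values are therefore a description of the choice and carry no test.

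ATAC-seq, which marks open DNA by insertions of the Tn5 transposase, was run on sorted, DAPI-stained nuclei of whole seedlings. The 8 Arabidopsis libraries, of 40 in the series, form 4 groups of 2: eTK and Col-0, each heated at 37 °C for 1 h or kept at 22 °C. Both genotypes grew for 7 days on the same sucrose medium in continuous light. HSFA1e, another Arabidopsis factor of the same class, is not named among the genes knocked out in eTK. No gene positions were used here, so the absence of the targeted genes could not be checked, and regions are named by chromosome, start and end as deposited, without their gene, exon, intron or UTR. The genome build, and whether starts count from 0 or 1, are not given in the sources used here. In whole seedlings, more nuclei with a region open and a more open region per nucleus cannot be told apart.

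Heat shock factors are transcription factors that bind heat shock elements, inverted repeats of a short motif, in the promoters of chaperone and other stress genes. The HSFA1 factors are held inactive by chaperones at normal temperature, are released when heat makes proteins unfold, and start the transcription of heat shock protein genes and of further heat shock factors. Binding of such factors and the transcription that follows are commonly accompanied by a loss of nucleosomes, which ATAC-seq reads as higher accessibility. No Arabidopsis genome was used here, so no sequence is shown.

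The heated Col-0 libraries stood apart from the other 6. They held 19.6 and 22.3 M counts against 33.2 to 38.7 M, a median of 72 and 84 counts per region against 191 to 218, and TMM factors of 0.697 and 0.715 against 1.09 to 1.15. The median region had a ratio of heated to unheated CPM of 1.01 in eTK and 0.639 in Col-0. With that median taken out, L = 2 stands for 4-fold against the median region and for 2.55-fold in CPM itself. The totals count reads within the regions, so they do not give the sequencing depth. Fewer counts and a changed balance of counts in these libraries cannot be told apart from heat in Col-0. Replicates correlated at a Spearman's rho of 0.965 to 0.979 across regions. All 8 libraries have the same batch label, and separate plantings of the replicates are not stated, so p-values measure only the spread between these libraries.

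In heated eTK the members took 0.795% and 0.850% of all counts, against 0.756% and 0.765% in eTK at 22 °C. In Col-0 they took 2.66% and 2.58% after heat, against 0.850% and 0.843% at 22 °C. They are 0.807% of the regions and 1.16% of the covered length. Their share of the library was thus of one size in the 6 other libraries and larger in both heated Col-0 libraries. The median CPM of a member was 5.93 and 6.62 in heated eTK, 5.67 and 5.88 in eTK at 22 °C, 20.6 and 19.8 in heated Col-0, and 6.51 and 6.24 in Col-0 at 22 °C.

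**Figure D1:**
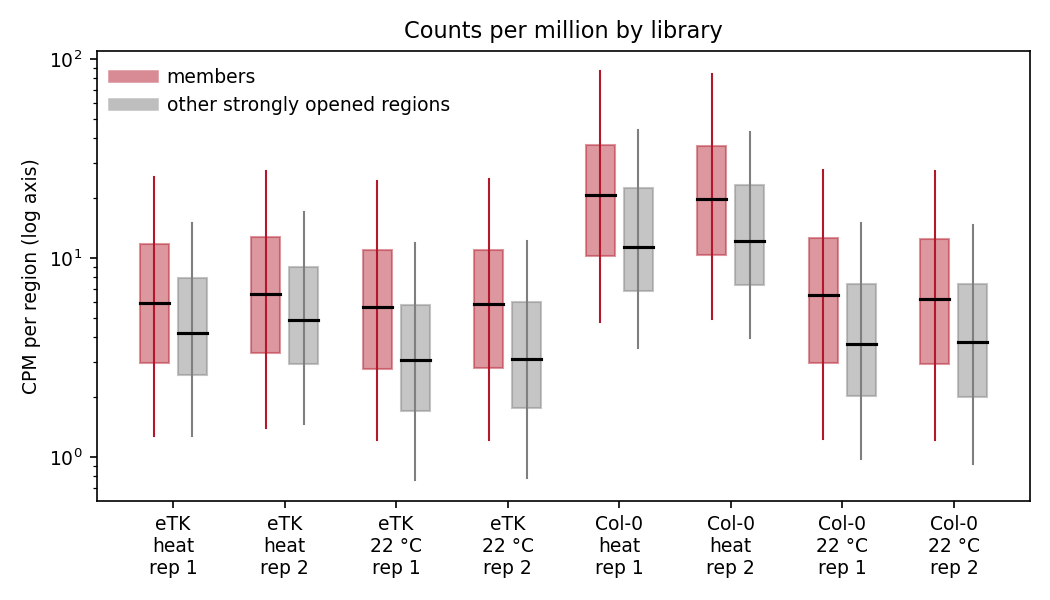
CPM per region on a log axis in the 8 libraries, for the 893 members and for the 644 other regions with L of at least 2 in Col-0. Boxes give quartiles, black bars medians and lines the 5th to 95th percentile over regions. Members have medians of 20.6 and 19.8 CPM in heated Col-0 and of 5.67 to 6.62 CPM in the other libraries, while the other regions also sit higher in heated eTK (4.21 and 4.86 CPM) than in eTK at 22 °C (3.06 and 3.09 CPM).

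Per length, the members ranked low in 3 groups and high in heated Col-0. Their median was 22.1 CPM per kb in heated eTK and 20.5 in eTK at 22 °C, where the median over all regions was 34.9 and 34.3. In heated Col-0 it was 71.0 CPM per kb, against 22.1 in Col-0 at 22 °C, where the median over all regions was 20.4 and 32.4. Of the members, 472 (52.9%) lay in the lowest 10% of all regions by CPM per kb in heated eTK, 506 (56.7%) in eTK at 22 °C, 0 in heated Col-0 and 418 (46.8%) in Col-0 at 22 °C. In heated Col-0, 476 (53.3%) were in the highest 10%, whereas 26 were there in heated eTK and 32 in Col-0 at 22 °C. The other 644 strongly opened regions were lower still at 22 °C, with medians of 15.8 CPM per kb in eTK and 18.5 in Col-0. In Col-0 at 22 °C, 60.7% of them lay in the lowest 10%. A low level at 22 °C makes a high ratio easier to reach, so these ranks partly restate the rule.

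The 10 members with the highest mean CPM show the pattern with the most counts. The region chr2:18986563-18990044, at 3481 bases the widest region in the table, had 41.5 and 49.2 CPM in heated eTK, 45.5 and 53.4 in eTK at 22 °C, 258 and 257 in heated Col-0, and 48.4 and 46.4 in Col-0 at 22 °C. At chr1:27936603-27938200 the values were 33.6 and 36.2 CPM in heated eTK, 32.4 and 34.7 in eTK at 22 °C, 182 and 169 in heated Col-0, and 32.1 and 30.6 in Col-0 at 22 °C. Both regions were at one level in 6 libraries and clearly higher in both heated Col-0 libraries. The region chr3:3991294-3993184 followed them, with 34.0 and 40.5 CPM in heated eTK, 34.0 and 40.5 in eTK at 22 °C, 199 and 186 in heated Col-0, and 34.0 and 33.5 in Col-0 at 22 °C. L was -0.14, 0.04 and -0.02 in eTK and 3.08, 3.11 and 3.14 in Col-0 for these regions in the order given.

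A pair of high members lay side by side on chromosome 5. The region chr5:21351813-21353723 had 37.3 and 37.7 CPM in heated eTK, 37.5 and 37.8 in eTK at 22 °C, 160 and 146 in heated Col-0, and 34.5 and 35.2 in Col-0 at 22 °C. Its neighbour chr5:21353807-21355622 had 40.3 and 39.7 CPM in heated eTK, 42.2 and 43.8 in eTK at 22 °C, 182 and 158 in heated Col-0, and 42.7 and 38.4 in Col-0 at 22 °C. Their L was 2.77 and 2.70 in Col-0, and their 2 heated Col-0 libraries were far above all others. The other 5 of the 10 were chr4:12916371-12918480, chr3:16983644-16985176, chr1:19979736-19981485, chr2:12633151-12634368 and chr5:2974788-2975842, with L from -0.21 to 0.06 in eTK and from 2.08 to 2.48 in Col-0. The first of them, on chromosome 4, had 56.8 and 59.2 CPM in heated eTK, 62.2 and 65.9 in eTK at 22 °C, 242 and 230 in heated Col-0, and 64.6 and 67.1 in Col-0 at 22 °C.

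The 10 members with the highest L in Col-0 were 169 to 1313 bases wide, and the 25 members with L of 3 or more had a median width of 336 bases. The highest, chr5:21846053-21846389, had 67 and 71 counts in heated eTK, 59 and 65 in eTK at 22 °C, 305 and 333 in heated Col-0, and 58 and 41 in Col-0 at 22 °C. Heated Col-0 was highest there although its totals of counts within the regions were the lowest. In CPM that was 2.02 and 2.00 in heated eTK, 1.73 and 1.94 in eTK at 22 °C, 15.6 and 14.9 in heated Col-0, and 1.50 and 1.21 in Col-0 at 22 °C, with L of 0.08 in eTK and 3.74 in Col-0. Heated Col-0 alone was high, and the other 6 libraries lay between 1.21 and 2.02 CPM. The region chr1:30058257-30059570 was the widest of the 10, at 1313 bases, with 12.5 and 16.1 CPM in heated eTK, 11.9 and 15.3 in eTK at 22 °C, 96.2 and 91.2 in heated Col-0, and 13.0 and 13.0 in Col-0 at 22 °C (L of 0.05 in eTK and 3.45 in Col-0). The other 8 of the 10 had L from -0.06 to 0.22 in eTK and from 3.21 to 3.45 in Col-0. They were chr3:2903014-2903191, chr3:3453097-3453354, chr3:4712621-4713023, chr4:13819988-13820157, chr4:17441938-17442156, chr5:3881931-3882189, chr5:3883860-3884066 and chr5:5014370-5014727.

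Most members sat close to the threshold. L in Col-0 had a median of 2.13 with quartiles of 2.05 and 2.28, so that 634 of the members (71.0%) were between 2 and 2.25, 145 between 2.25 and 2.5, 89 between 2.5 and 3 and 25 at 3 or more. The regions just inside were chr4:7624052-7624156, chr1:8010606-8010988 and chr1:652258-653051, with L of 2.0002, 2.0004 and 2.0006. Just outside were chr1:29035448-29035937, chr1:6641419-6641631 and chr5:24383951-24384088, at 1.9998, 1.9996 and 1.9994. On the eTK side, the region chr5:3358205-3358470 (0.2998) and the region chr1:3278592-3279139 (0.2997) were just inside, and the region chr5:6833045-6833561 (0.3002) and the region chr4:12479100-12479409 (0.3005) just outside. Below the threshold, 9206 regions had L between 1.5 and 2 in Col-0 and 14155 between 1 and 1.5, so the members are the upper end of a wider group.

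**Figure D2:**
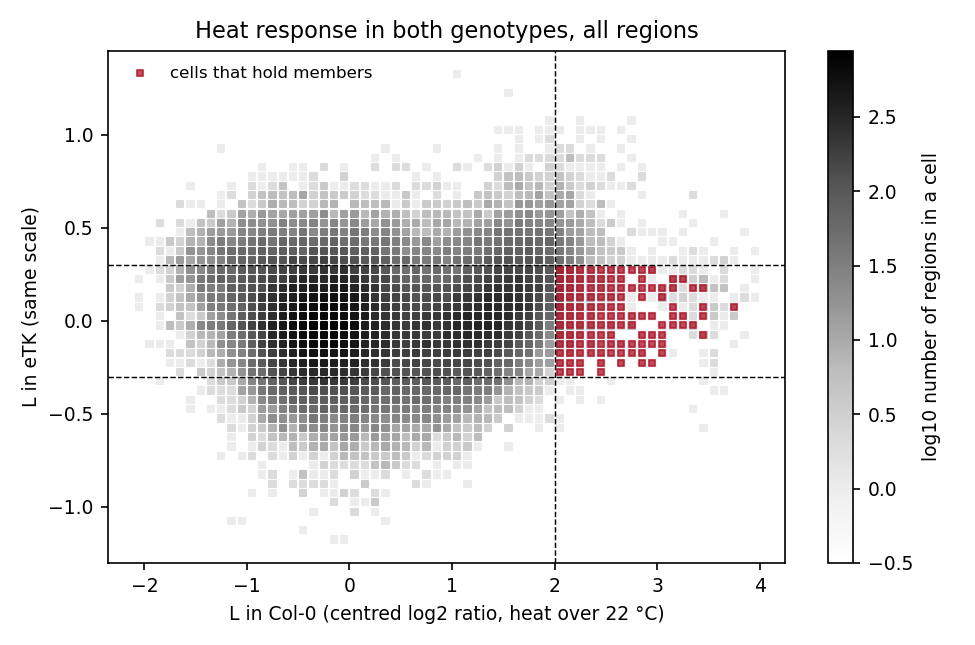
L in eTK against L in Col-0 for all 110628 regions, in cells of 0.1 by 0.05 shaded by the log10 number of regions, with cells that hold members in red and the thresholds dashed. Members lie at 2 to 3.74 on the Col-0 axis, to the right of a broad group of regions between 1 and 2. The eTK axis is far narrower, from -1.16 to 1.31. Also plotted are 159 regions of the excluded stretch with L of at least 2 in Col-0, and over all regions L in Col-0 reaches 3.99. Red cells can hold other regions beside members.

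Flatness in eTK was common and not particular to regions that opened. Among all regions, 83.7% had L within 0.3 of 0 in eTK, and 1.53% had L of at least 2 in Col-0, both being the rule's own criteria. Of the 1537 regions with L of at least 2 in Col-0 outside the excluded stretch, 893 (58.1%) became members, 626 had L of at least 0.3 in eTK, 11 had L of -0.3 or less and 7 had too few counts. None of the 1537 reached L of 2 in eTK, and 7 reached 1. The share within 0.3 in eTK was 87.4% for L of 1 to 1.5 in Col-0, 79.5% for 1.5 to 2, 58.7% for 2 to 2.25, 52.3% for 2.25 to 2.5, 64.0% for 2.5 to 3 and 83.9% (26 of 31 regions) for 3 or more. Regions not taken because of their eTK value thus also had a lower L in eTK than in Col-0. Over all regions outside the stretch, the median L in eTK was 0.25 for L of 2 to 2.25 in Col-0. For 2.25 to 2.5 it was 0.28. The bound of 0.3 thus fell near the middle of these regions, and the members are not a separate flat class.

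Within the bound of 0.3, eTK leaned to higher values after heat. L in eTK had a median of 0.12 with quartiles of 0.00 and 0.21, and 664 of the 893 members were above 0. In 391 members (43.8%) both heated eTK libraries were above both unheated ones, in 53 (5.94%) both were below and in 449 they overlapped, against 28.0% above and 22.7% below over all regions. By edgeR's quasi-likelihood test 39 members were called higher with heat in eTK, where 3.98% of all regions were, and 2 lower, where 3.95% were. The rule used this contrast, so nothing is read from those counts. In Col-0, both heated libraries were above both unheated ones in all 893 members, with the lower heated CPM at least 2.06 times the higher unheated CPM and 2.75 times at the median. Over all regions 26.9% had both heated Col-0 libraries above both unheated ones, and the count over the members largely restates the choice.

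Leaving out a library and repeating the choice gave a reading in a library that the choice had not used, set against the same 2 libraries of the other temperature. Without Col-0 heat replicate 1 the rule found 787 regions, and in that library alone their median L was 2.14 (quartiles 2.00 and 2.34). Without Col-0 heat replicate 2 it found 982, with a median of 2.05 (1.92 and 2.23) in the library left out. For Col-0 at 22 °C the medians in the library left out were 2.09 and 2.11. In these 4 cases every region was above L of 1 in the library left out, and 60.1% to 75% were at 2 or more. For eTK, the medians were 0.05 and 0.24 with heat replicates 1 and 2 left out, and 0.15 and 0.13 with 22 °C replicates 1 and 2 left out. In the same order, 87.3%, 61.8%, 76.7% and 76.3% stayed within 0.3. With all libraries, 1.53% of all regions met the Col-0 bound and 83.7% the eTK bound. Only the first of the eTK shares was above that 83.7%. Outside the excluded stretch, 14155 of the 110628 regions had L of 1 to 1.5 in Col-0 and 9206 had 1.5 to 2. Shares over all regions in the library left out alone were not computed. The libraries of the other temperature had also served the choice, so these readings are not independent of it, and they describe how far membership near both bounds changed with the library.

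Accessibility before heat was compared between genotypes, which the thresholds do not fix. Of the members, 258 were lower in eTK than in Col-0 at 22 °C and 6 were higher, by edgeR's quasi-likelihood test at an adjusted p under 0.05 (Benjamini-Hochberg over all 110628 regions). Over all regions 13.4% were lower and 6.6% higher, so the members' shares were 28.9% and 0.672%. The differences were small: the log2 difference of eTK minus Col-0 had a median of -0.18 over the members (quartiles -0.33 and -0.01) and of 0.01 over all regions, and 807 members (90.4%) were within 0.5 of 0, close to the share of all regions (99726 of 110628). The other 644 strongly opened regions had a median of -0.32. These 22 °C libraries also entered the rule, so the counts describe the members and are no independent support. In both directions together, 29.6% of the members and 20.0% of all regions were called. The number of members called was 154 (17.2%, against 10.7% of all regions) without Col-0 22 °C replicate 1 and 169 (18.9% against 11.5%) without replicate 2. It was 175 (19.6% against 12.7%) without eTK 22 °C replicate 1 and 168 (18.8% against 11.9%) without replicate 2. With loess offsets it was 170 (19.0% against 15.5%), of which 152 were lower and 18 higher. With total count scaling it was 193 (21.6% against 20.8%), of which 181 were lower and 12 higher. The excess over all regions in both directions together was thus small under these scalings, but pooling hides the direction. With total count scaling 181 of the 193 members called were lower, against 10771 of the 22989 regions called. With loess offsets 152 of the 170 members called were lower, against 9693 of the 17195 regions called. Lower calls thus outweighed higher ones more among the members than over all regions. The members' median minus that of all regions was -0.19 in the main fit and with total count scaling, and -0.14 with loess offsets. Over all regions the split of 7302 higher and 14797 lower turned to 12218 and 10771 with total count scaling and was 7502 and 9693 with loess offsets.

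**Figure D3:**
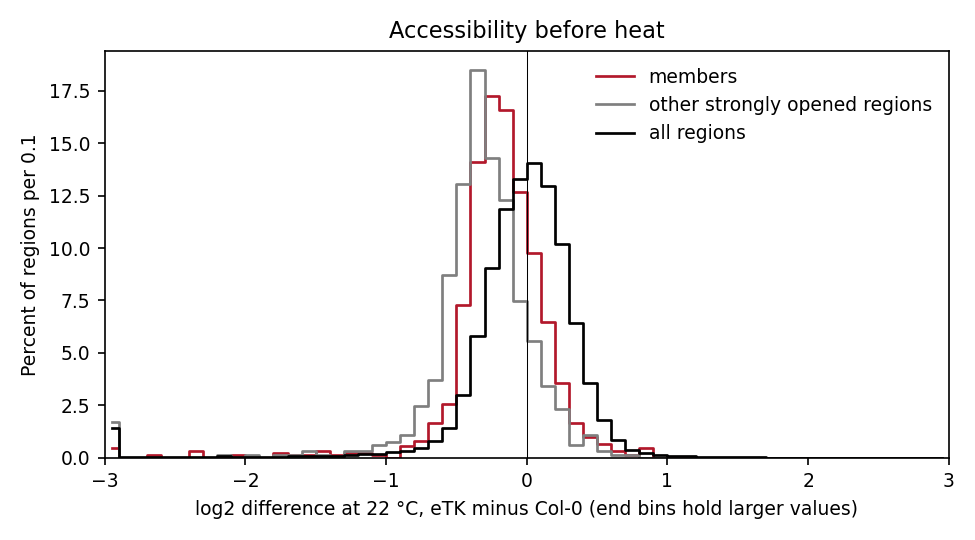
Distribution of the log2 difference of eTK minus Col-0 at 22 °C, in percent of regions per 0.1, for the members, the other strongly opened regions and all regions. The medians are -0.18, -0.32 and 0.01.

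The difference before heat shrank among members with a higher response. Its median was -0.21 for members with L of 2 to 2.25 in Col-0, -0.14 for 2.25 to 2.5, -0.06 for 2.5 to 3 and -0.02 for 3 or more. Over the same steps the median level in heated Col-0 was 72.1, 68.8, 69.6 and 72.4 CPM per kb, while in Col-0 at 22 °C it was 25.1 in the lowest step and 10.9 in the highest. Median levels after heat were thus alike across the 4 steps, and those at 22 °C were not. A low unheated Col-0 value raises both L and the difference of eTK minus Col-0, and this link was not tested.

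A few members were nearly empty in eTK in both conditions. The region chr1:28515921-28516144 had 13 and 18 counts in heated eTK, 4 and 22 in eTK at 22 °C, 435 and 495 in heated Col-0, and 281 and 256 in Col-0 at 22 °C, a log2 difference at 22 °C of -4.32 (SE 0.23, edgeR adjusted p = 6.84e-32). At chr3:3455112-3455477 the counts were 26 and 28 in heated eTK, 18 and 26 in eTK at 22 °C, 738 and 750 in heated Col-0, and 465 and 319 in Col-0 at 22 °C, a difference of -4.10 (SE 0.18, adjusted p = 2.02e-38). Both had few counts in all 4 eTK libraries and far more in Col-0 at either temperature. Within 2 kb of the chromosome 3 region, the member chr3:3453097-3453354 had 4 and 12 counts in heated eTK, 8 and 9 in eTK at 22 °C, 193 and 212 in heated Col-0, and 44 and 29 in Col-0 at 22 °C, a difference of -2.04 (SE 0.41, adjusted p = 4.95e-05), which missed the threshold with loess offsets (-1.03). The others among the 5 lowest were chr5:689219-689311 (-3.47), chr5:16372082-16372298 (-2.95) and chr3:22138760-22138937 (-2.65). The region chr5:689219-689311 had 4 and 4 counts in eTK at 22 °C, and 47 and 47 in Col-0 at 22 °C. Its difference was -0.21 and not called with loess offsets, and -3.57 to -3.38 in every other setting.

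In all, 22 members (2.46%) were over 2-fold lower in eTK at 22 °C, beside 2.87% of all regions, and 26 had a mean under 1 CPM there. At such levels the 0.5 CPM added to each mean pulls L in eTK towards 0: with 0.1 CPM added instead, 15 of the 26 were still within 0.3. For the rest the flat L in eTK rests on the pseudocount. Whether reads of these regions map in the eTK line as in Col-0 was not tested.

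The 6 members higher in eTK at 22 °C differed by less than 2-fold. The region chr1:28293038-28293257 had 3.79 and 4.20 CPM in heated eTK, 4.44 and 4.15 in eTK at 22 °C, 7.66 and 9.60 in heated Col-0, and 2.09 and 2.33 in Col-0 at 22 °C, a log2 difference at 22 °C of 0.89 (SE 0.18, edgeR adjusted p = 6.84e-05). At chr1:4540874-4541222 the values were 18.7 and 17.7 CPM in heated eTK, 16.9 and 16.2 in eTK at 22 °C, 29.4 and 29.7 in heated Col-0, and 11.3 and 10.3 in Col-0 at 22 °C, a difference of 0.54 (SE 0.09, adjusted p = 2.71e-06). In both, eTK lay between the unheated and the heated Col-0 libraries in either condition. The others among the 5 with the highest differences were chr4:14129503-14129595 (0.88), chr5:3358205-3358470 (0.59) and chr2:8848063-8848737 (0.35). The chromosome 4 region missed the threshold with DESeq2, with loess offsets and without any 1 of the 4 libraries at 22 °C, and the chromosome 5 region without Col-0 22 °C replicate 1 or eTK 22 °C replicate 2.

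Members were wider than most regions. Their median width was 287 bases (quartiles 171 and 458), against 203 for the other strongly opened regions and 179 for all regions. Regions of 1 kb or more made up 33 of the members (3.70%), 2 of the 644 other strongly opened regions (0.311%) and 1.49% of all regions. At the other end, 72 members (8.06%) were under 100 bases, against 14.6% and 20.3%. Wider regions collect more counts, and members had a median of 267 counts per library, against 158 and 175 in the same order.

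Members were spread unevenly along the chromosomes. Chromosome 1 held 225, chromosome 2 held 115, chromosome 3 held 192, chromosome 4 held 134 and chromosome 5 held 227, or 7.91, 6.04, 8.84, 7.94 and 9.25 per 1000 regions. In bins of 1 Mb, 19 of 121 bins with 15593 regions held no member. They included chromosome 1 from 13 to 17 Mb and chromosome 2 from 2 to 4 Mb and from 5 to 8 Mb. The others were chromosome 3 from 12 to 15 Mb, chromosome 4 from 2 to 6 Mb and chromosome 5 from 10 to 13 Mb. All lay in the interior of the chromosomes. The bin on chromosome 2 from 3 to 4 Mb holds the excluded stretch. Its 318 regions could not be members but stay in the counts of regions used here. The densest bins were chromosome 3 from 2 to 3 Mb, with 30.0 members per 1000 regions, and chromosome 4 from 16 to 17 Mb, with 28.2, where the whole table had 8.07.

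This distribution went with the Col-0 response of each bin as a whole. In the 23 bins whose median L in Col-0 was 0.5 or more, there were 329 members, or 20.7 per 1000 regions, and 320 of the other strongly opened regions. In the 19 bins with a median L of -0.3 or less there were 6 members, or 0.391 per 1000 regions, and 2 of the others. These 19 bins include chromosome 2 from 3 to 4 Mb, where the excluded stretch lies. Its 159 regions with L of at least 2 in Col-0 are in neither count. The same contrast chose the members, so this places them and tests nothing.

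Some members lay near one another, and their share depended on the gap allowed. With gaps of up to 2 kb, they formed 748 loci, of which 106 held 2 or more members and together 251 (28.1%). The share of members in such loci was 15.3% with gaps of up to 500 bases, 20.8% with 1 kb and 37.8% with 5 kb, and the same for all regions was not computed. The 9 loci with 4 or 5 members were singled out after their values were seen. At chr5:3881931-3885194 all 4 regions were members, with L from 2.67 to 3.45 in Col-0 and from -0.05 to 0.19 in eTK. Their summed CPM was 48.4 and 51.1 in heated eTK, 46.5 and 49.6 in eTK at 22 °C, 245 and 242 in heated Col-0, and 51.7 and 50.9 in Col-0 at 22 °C. At this locus both heated Col-0 libraries were far above the other 6, over 3263 bases.

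Comparable stretches were found on chromosomes 3 and 5. At chr3:2902879-2906381 all 5 regions were members, and their summed CPM was 66.7 and 69.0 in heated eTK, 61.5 and 67.1 in eTK at 22 °C, 241 and 239 in heated Col-0, and 70.7 and 73.0 in Col-0 at 22 °C. At chr5:5013712-5016637 the sum over 5 members was 26.8 and 31.1 CPM in heated eTK, 25.1 and 31.1 in eTK at 22 °C, 147 and 142 in heated Col-0, and 29.9 and 27.7 in Col-0 at 22 °C. In each, every region of the stretch was a member and the 6 other libraries stayed together. The locus at chr1:10546089-10548347 was mixed, with 4 members among 6 regions and L from 0.94 to 3.16 in Col-0. The other 5 were chr1:729472-731867, chr1:28442210-28445259, chr4:17538118-17540515, chr5:19690555-19694433 and chr5:22686390-22690006.

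Regions beside members also had a raised L in Col-0. Those within 0.5 kb of a member had a median L of 0.01 in eTK and 1.29 in Col-0 (971 regions), and those at 0.5 to 1 kb of -0.02 in eTK and 0.89 in Col-0 (754 regions). The Col-0 median was 0.69 at 1 to 2 kb, 0.45 at 2 to 5 kb and 0.23 at 5 to 10 kb. It was nearly level at 0.18 for 10 to 20 kb and 0.16 for 20 to 50 kb, and -0.13 at 50 kb or more. In eTK the median stayed between -0.04 and 0.01 at every distance. Of the regions within 0.5 kb, 61.1% had L of 1 or more in Col-0, against 27.7% at 20 to 50 kb and 16.3% at 50 kb or more. Members were taken out of these counts, so the values lack those of the members. The other 644 regions with L of at least 2 in Col-0 stayed in.

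**Figure D4:**
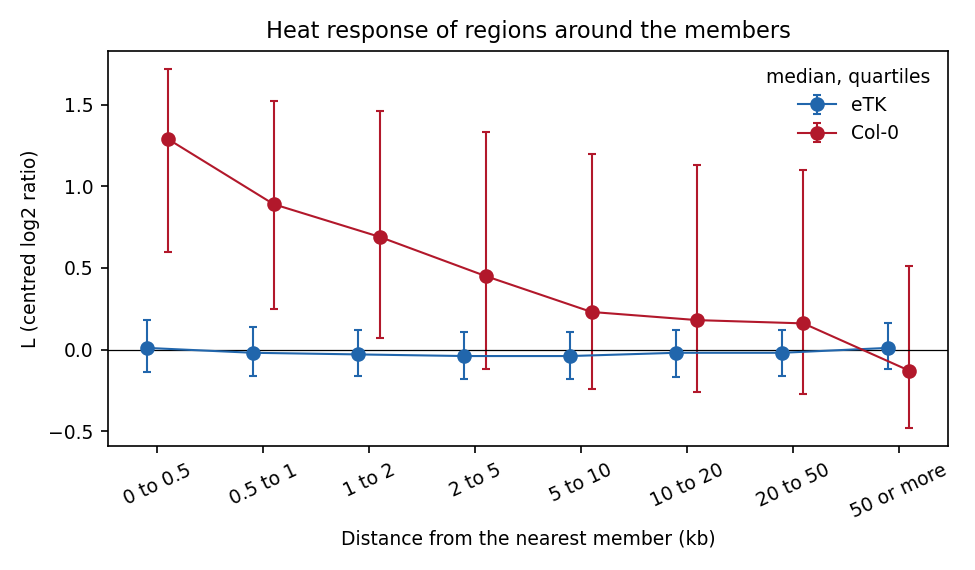
L in eTK and in Col-0 for regions that are not members, by distance to the nearest member in kb, as medians with quartiles. The Col-0 median is 1.29 within 0.5 kb, 0.16 at 20 to 50 kb and -0.13 at 50 kb or more, and the eTK median lies between -0.04 and 0.01.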

How the data were processed

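The authors deposited raw read counts per accessible region of the 8 Arabidopsis libraries, without normalization. Per the submitters' processing notes, tools included fastp 0.24.0, Bowtie2 2.4.4, MACS2 2.2.7.1 and featureCounts from Subread 2.0.6. Build, duplicate treatment, settings and pooling of peaks are not given in the sources used here. Every column was matched to its sample by the labels.

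CPM and L were computed as described in the report. All 110628 regions were fitted with edgeR 4.0.16 (R 4.3.3, limma 3.58.1): 1 mean per group, TMM, filterByExpr (0 regions removed), quasi-likelihood F test, two-sided, Benjamini-Hochberg over all regions at 0.05. SE was taken as the size of the log2 change divided by √F. On simulated data the test of eTK minus Col-0 at 22 °C found 91 of 100 2-fold and 56 of 100 1.5-fold changes among 110628 regions, with 7 false calls. There, all groups shared the same mean per region apart from the changed regions, which were far fewer than the 22099 called in the data. Recovery and false calls on the real data may therefore differ. Alternatives were DESeq2 1.42.0, total count scaling, loess offsets, no filter, a block for replicate number, and each library left out in turn.

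Members and lists were chosen with earlier results of these data known. Named members were the 10 with the highest mean CPM and the 10 with the highest L in Col-0 and a mean of at least 20 counts over the libraries. Also named were those nearest each bound, and up to 5 each way past the threshold at 22 °C. The lists of heat, endoplasmic reticulum, dehydration and stable genes, and heat shock elements, were not analysed here, since they need gene positions and a genome. The Marchantia tables were not used.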

Additional observations from a re-analysis of the deposited data

How the results depend on the processing

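The number of members was 734 to 1037 when any 1 library was left out, 949 with edgeR's TMM log2 changes in place of L (744 of them among the 893), 1300 with an eTK bound of 0.5 and 891 with more than 20 counts in eTK at 22 °C. It was 1608 with 0.1 CPM added, 425 with 1 CPM added (400 among the 893) and 67 with no centring, all of them among the 893. Centring adds 0.65 to L in Col-0, and the pseudocount shrinks L at low levels by construction.

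For eTK minus Col-0 at 22 °C, 22099 regions were called, and 11784 to 25763 when any 1 library was left out. Among the members 264 were called, 154 to 282 when any 1 library was left out, and 170 with loess offsets. With total count scaling 193 members were called and with DESeq2 256, and the median difference of the members was -0.11 to -0.23 under every setting run. Of the named members, chr2:12633151-12634368 had 0.04 with loess offsets, against -0.18, and 7 of the 10 with the highest mean CPM passed the threshold as higher in eTK with loess offsets (0.21 to 0.28). The cause was not tested.

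Replicate numbers did not pair the samples: deviations correlated at -0.018 to 0.058 between groups. With a replicate block 22935 regions and 272 members were called, and the median of the members was -0.18. No filter removed nothing and changed nothing. Other window sizes for heat shock elements and for distances to listed genes were not run, for want of a genome. The 2 libraries per group, and the lower count totals of heated Col-0, limit the precision of L near its bounds: a member had as few as 32.9 counts per library on average.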
